A study of Mus musculus with 8 samples.

Results

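The genes described here encode the receptors through which microglia sense extracellular nucleotides and adenosine, together with 1 enzyme that degrades those nucleotides at the cell surface. They are 5 P2Y receptors (P2ry2, P2ry6, P2ry12, P2ry13 and P2ry14), 2 P2X channels (P2rx4 and P2rx7), the ectonucleotidase Entpd1 and 2 adenosine receptors (Adora2a and Adora3). Members were chosen by name: every array probe whose RefSeq accession belongs to 1 of the 10 symbols was taken, which gave 12 of the 55681 probes on the array and 10 of the 19117 genes tested. P2rx7 had 3 probes and each other gene had 1. All 12 probes were well above background, by the scanner software's own flag, on all 8 arrays.

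RNA came from primary microglia of C57BL/6 mice, the resident macrophages of the brain, held for 3 h in 1 of 4 conditions. The cells received PBS, or 20 µg/ml of an antibody Fc fragment, of Fc fused to residues 71 to 132 of Ecrg4, a secreted precursor protein, or of Fc fused to its residues 133 to 148. Each condition has 2 one-colour arrays, which the titles number as set 1 and set 2, so that each set holds 1 array of each condition. The labels give neither the origin of each set (culture or animal), nor how the microglia were prepared, nor the age of the mice; p-values therefore measure only the spread between these arrays, which may be technical. Fc is the carrier control for both fragments, and all groups share the same cell type and strain.

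Dying, active or stressed cells release ATP and other nucleotides, which microglia detect through P2X channels, opened by ATP, and through G protein-coupled P2Y receptors. Ectonucleotidases at the cell surface strip phosphates from ATP and ADP, and the adenosine that finally results acts on its own receptors. P2ry12 is one of the best known markers of microglia at rest in the brain, where it guides their processes towards sites of injury, and it is known to be lost when the cells are activated.

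Signal is given throughout as log2 intensity after subtraction of the array's 75th percentile, so that 0 is the 75th percentile of that array. Array signals of different probes are not compared with each other. Sums over marker lists add linear signal of different probes, so the brightest probes weigh most in them. Values of 1 gene in a set are listed in the order PBS, Fc, Ecrg4(71-132), Ecrg4(133-148). The number of probes well above background ranged from 24254 to 29483 over the arrays, and no spot was saturated. The sets differed across much of the array, with 59.3% of genes tested called different between them (limma, adjusted p under 0.05), and genes deviated together in the arrays of a set, with correlations of 0.78 to 0.86 between the set differences of any 2 conditions. Treatment differences are therefore given within each set beside the mean of both, and fits that hold the set as a block are given beside fits without it.

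**Figure D1:**
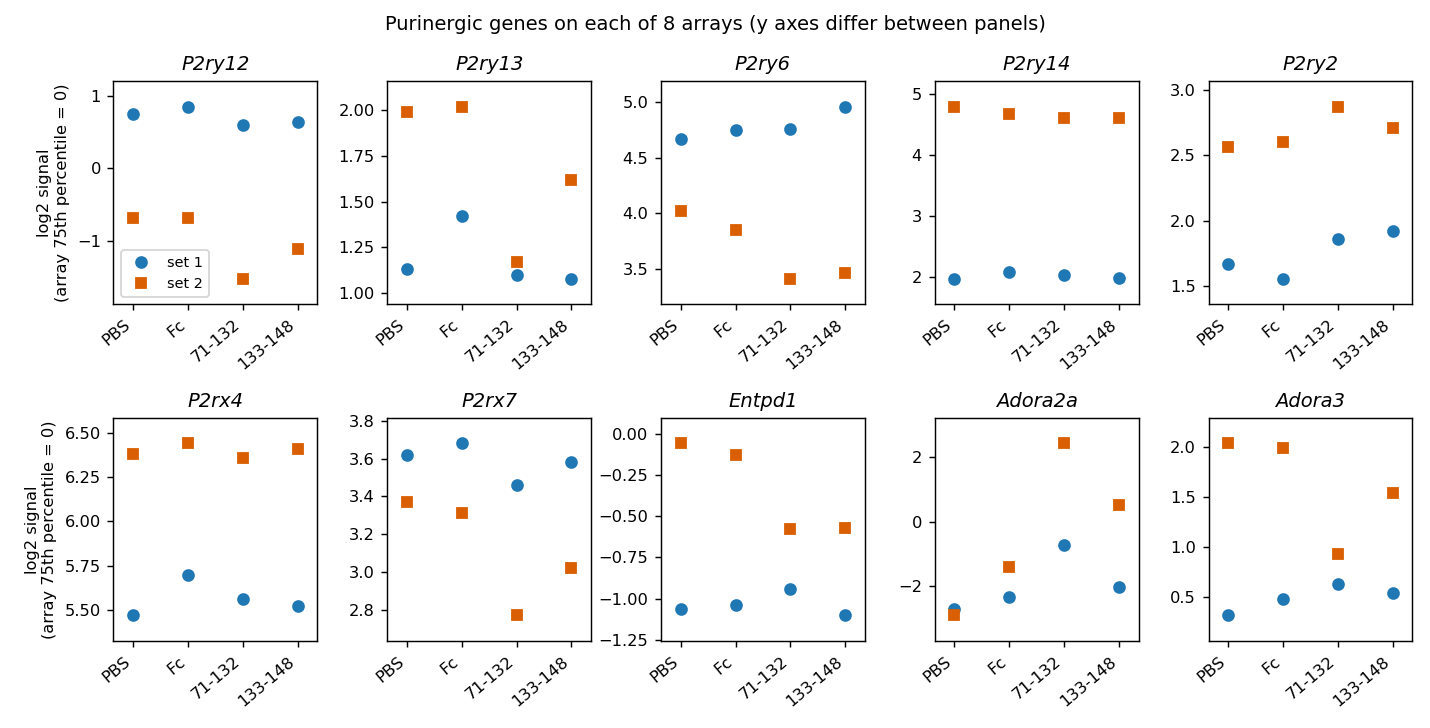
Log2 signal (array 75th percentile = 0) of each of the 10 genes on the 8 arrays, by condition, with circles for set 1 and squares for set 2, 1 array a point. P2ry14 lay between 1.98 and 2.08 in set 1 and between 4.60 and 4.79 in set 2, whereas Adora2a ranged from -2.90 with PBS to 2.42 with Ecrg4(71-132) in set 2.

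Adora2a, which encodes the Gs-coupled adenosine receptor that raises cyclic AMP in macrophages, was the member that differed most between treatments. Its signal was -2.70, -2.33, -0.71 and -2.02 in set 1 and -2.90, -1.4, 2.42 and 0.51 in set 2. The 4 conditions stood in the same order in both sets, from PBS through Fc and Ecrg4(133-148) to Ecrg4(71-132). The array with Ecrg4(71-132) in set 2 was the highest of the 8, and both PBS arrays were lower than any other array. Group means were -2.80 ± 0.15 with PBS, -1.87 ± 0.66 with Fc, -0.76 ± 1.79 with Ecrg4(133-148) and 0.86 ± 2.21 with Ecrg4(71-132) (SD, n = 2). No neighbouring pair in this order differed beyond its 95% interval, in the fit with or without the set as a block.

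Against Fc, Ecrg4(71-132) gave an Adora2a signal 2.72 higher on the log2 scale (SE 1.27, 95% interval -0.46 to 5.91), by 1.62 in set 1 and 3.82 in set 2. The mean difference corresponds to 6.6-fold. The test over all genes did not call it (limma, adjusted p = 1). Blocking on the set narrowed the interval to 0.43 to 5.02, with an adjusted p of 0.237. Whether the difference was larger in set 2 than in set 1 was not tested. Ecrg4(133-148) gave 1.11 more than Fc (SE 1.27, interval -2.08 to 4.30), by 0.31 and 1.91 in the sets. Fc itself lay 0.93 above PBS (SE 1.27, interval -2.25 to 4.12), by 0.37 and 1.5. The comparisons with Fc share the Fc arrays. Against PBS, Ecrg4(71-132) was 3.66 higher (interval 0.47 to 6.84, unadjusted p = 0.0314, adjusted p = 0.987), by 1.99 and 5.33, with a block adjusted p of 0.14.

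The direct comparison of the fragments at the same dose put Adora2a 1.61 lower with Ecrg4(133-148) than with Ecrg4(71-132) (interval -4.80 to 1.57, limma adjusted p = 1). The differences within the sets were -1.31 and -1.92. The blocked interval was -3.91 to 0.68 (block adjusted p = 0.714). When 1 array at a time was left out, the difference between Ecrg4(133-148) and Fc ran from -0.15 to 2.37, and it was below 0 only without the set 2 array of Ecrg4(133-148), in the fit with no block.

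A count over all members used a fold over 1.5 in the same direction in both sets, with no test. Since the members were chosen with earlier results of these data known, it cannot test an excess over all genes. By this count 1 of the 10 members, Adora2a, was higher with Ecrg4(71-132) than with Fc, against 1.33% of all genes tested, and none was lower, against 1.43%. No member was higher or lower with Ecrg4(133-148) than with Fc, where 0.303% of all genes were higher and 0.387% lower. Between the fragments, Adora2a alone was lower with Ecrg4(133-148), against 1.12% of all genes, and none was higher, against 0.539%. No member passed between Fc and PBS, where 0.183% of genes were higher and 0.382% lower. Limma called 0 members and 0 genes (0%) in each of the 6 treatment comparisons, with and without the block. For Ecrg4(71-132) against Fc, unadjusted p was under 0.05 for 643 genes and 0 members in the unblocked fit and for 3558 genes and 5 members in the blocked one.

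**Figure D2:**
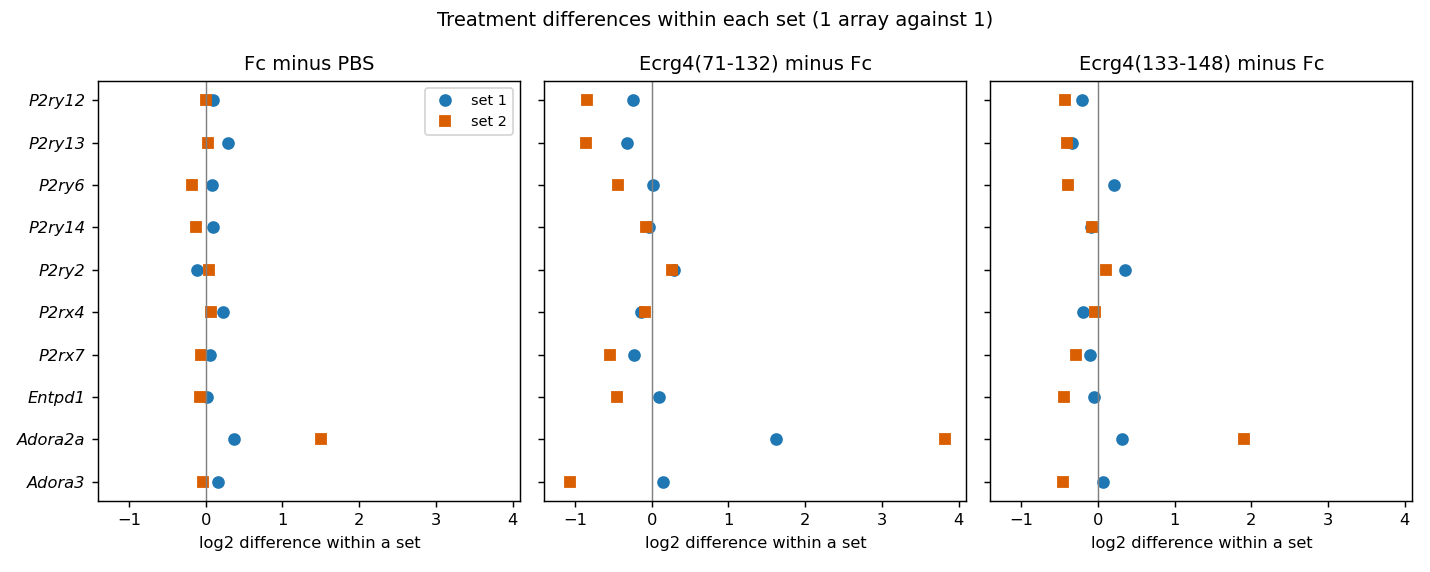
Log2 differences of the 10 genes within each set, 1 array against 1, for Fc minus PBS (left), Ecrg4(71-132) minus Fc (middle) and Ecrg4(133-148) minus Fc (right), with circles for set 1 and squares for set 2. Adora2a in set 2 lay furthest to the right in all 3 panels, at 3.82 in the middle one, and P2ry12 and P2ry13 lay left of 0 in both sets in the middle and right panels.

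The ADP receptors P2ry12 and P2ry13 were lower with both fragments than with Fc in both sets, by amounts that the unblocked intervals do not separate from 0. The blocked intervals for Ecrg4(71-132) lay below 0, with no call after adjustment over all genes. P2ry12 read 0.75, 0.85, 0.60 and 0.64 in set 1 and -0.69, -0.68, -1.52 and -1.11 in set 2. In each set the arrays with PBS and Fc were the higher pair, and the array with Ecrg4(71-132) was the lowest. Ecrg4(71-132) lay 0.54 below Fc as a log2 difference of -0.54 (SE 1.06), with -0.25 in set 1 and -0.84 in set 2. The interval was -3.20 to 2.12 without the block and -1.02 to -0.06 with it (block adjusted p = 0.244). Ecrg4(133-148) minus Fc was -0.32, with -0.21 and -0.43 in the sets.

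P2ry13 read 1.13, 1.42, 1.1 and 1.08 in set 1 and 1.99, 2.02, 1.17 and 1.62 in set 2. The Fc array was the highest of each set, and PBS and Fc in set 2 lay above all other arrays. Ecrg4(71-132) minus Fc was -0.59 (SE 0.38, interval -1.54 to 0.36), with -0.32 in set 1 and -0.85 in set 2, and the interval with the block was -1.1 to -0.08 (block adjusted p = 0.243). For Ecrg4(133-148) the difference from Fc was -0.37, with -0.34 and -0.41 in the sets. Against PBS the P2ry13 differences within set 1 were close to 0, at -0.04 for Ecrg4(71-132) and -0.05 for Ecrg4(133-148), and those within set 2 were -0.82 and -0.37.

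P2rx7, the ATP-gated channel that feeds the NLRP3 inflammasome, read 3.62, 3.68, 3.46 and 3.58 in set 1 and 3.37, 3.31, 2.77 and 3.02 in set 2 by its brightest probe. The array with Ecrg4(71-132) was the lowest of each set. Its difference from Fc was -0.38 (SE 0.32, interval -1.20 to 0.43), with -0.23 and -0.54 in the sets, and -0.71 to -0.06 with the block (block adjusted p = 0.239). The other 2 P2rx7 probes gave -0.13 (SE 0.21, sets -0.23 and -0.03) and -0.16 (SE 0.23, sets -0.46 and 0.15), so that 1 of the 3 probes had opposite signs in the sets. P2rx4, the channel studied for its part in microglial pain signalling, read 5.47, 5.70, 5.56 and 5.52 in set 1 and 6.38, 6.44, 6.36 and 6.41 in set 2. Within a set its 4 arrays spanned little, and Ecrg4(71-132) minus Fc was -0.11 (SE 0.52), with -0.14 and -0.08 in the sets.

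P2ry2, a receptor for ATP and UTP, was the other member with higher signal for both fragments in both sets. It read 1.67, 1.56, 1.86 and 1.92 in set 1 and 2.56, 2.60, 2.87 and 2.71 in set 2, so that both fragment arrays lay above both control arrays within each set. Ecrg4(71-132) minus Fc was 0.28 (SE 0.58, interval -1.19 to 1.75), with 0.29 and 0.27 in the sets, and 0.05 to 0.51 with the block (block adjusted p = 0.235). Ecrg4(133-148) minus Fc was 0.23, with 0.36 and 0.10. P2ry14, a receptor for UDP-glucose and other UDP sugars, read 1.98, 2.08, 2.04 and 1.99 in set 1 and 4.79, 4.67, 4.60 and 4.60 in set 2. Its differences from Fc were -0.05 for Ecrg4(71-132) and -0.08 for Ecrg4(133-148), and the first became 0.006 when arrays were scaled on their median.

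For P2ry6, Entpd1 and Adora3 the difference between Ecrg4(71-132) and Fc had opposite signs in the 2 sets. P2ry6, the UDP receptor known to trigger phagocytosis by microglia, read 4.67, 4.75, 4.76 and 4.96 in set 1 and 4.02, 3.85, 3.41 and 3.46 in set 2. The 2 fragment arrays were the highest of set 1 and the lowest of set 2. Ecrg4(71-132) minus Fc was 0.01 in set 1 and -0.44 in set 2 (mean -0.21, SE 0.71). Entpd1, which encodes CD39, the enzyme that hydrolyses ATP and ADP to AMP, read -1.06, -1.04, -0.94 and -1.1 in set 1 and -0.06, -0.13, -0.58 and -0.57 in set 2. Both fragment arrays of set 2 lay below its control arrays, and the set 1 arrays differed little. Ecrg4(71-132) minus Fc was 0.10 and -0.45 (mean -0.17, SE 0.47). Adora3, a Gi-coupled adenosine receptor, read 0.32, 0.48, 0.63 and 0.54 in set 1 and 2.03, 1.99, 0.93 and 1.54 in set 2. In set 2 its controls were the highest arrays and Ecrg4(71-132) was the lowest, whereas in set 1 the order ran the other way. The difference from Fc was 0.15 and -1.07 (mean -0.46, SE 0.77). These differences between the sets were not tested.

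Over the 10 members, Ecrg4(71-132) minus Fc had a median of -0.19, against -0.02 over all genes tested, and the median over members was -0.01 within set 1 and -0.44 within set 2. By any amount, 2 members (Adora2a and P2ry2) were higher in both sets and 5 were lower, where 28.5% of all genes were higher and 36.4% lower. For Ecrg4(133-148) against Fc, 2 members were higher and 6 lower in both sets, where 28.5% and 30.6% of all genes were. Between Fc and PBS the members other than Adora2a differed by -0.05 to 0.16, and 4 were higher in both sets and 0 lower, where 39.6% and 16.7% of all genes were. Between the fragments, 3 members were higher and 1 lower with Ecrg4(133-148) in both sets, where 33.5% and 23.7% of all genes were. With PBS as the control, Adora2a alone passed the 1.5-fold count, higher with either fragment. For Ecrg4(71-132) the share of all genes past it was 1.88% higher and 2.11% lower, and for Ecrg4(133-148) it was 0.554% and 0.947%. By any amount, 2 members were higher and 3 lower with Ecrg4(71-132) than with PBS, where 34.3% and 31.5% of all genes were. For Ecrg4(133-148) against PBS these counts were 3 and 4, where 36.3% and 23.8% of all genes were higher and lower.

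Summed linear signal of the 9 microglia and macrophage markers went from 1150 for Fc to 1120 for Ecrg4(71-132) in set 1, and from 1460 to 1320 in set 2, in multiples of the array's 75th percentile. Of the 7 astrocyte markers tested, 3 (Aqp4, Slc1a2 and Slc1a3) were over 1.5-fold higher with Ecrg4(71-132) than with Fc in both sets, against 1.33% of all genes, although none of these 3 was well above background on more than 6 arrays. The astrocyte sum went from 30.2 to 33.2 in set 1 and from 76.8 to 72.4 in set 2, and in no other marker list did a gene pass that count. In bulk RNA, fewer cells of a type and less RNA per cell cannot be told apart, and the part of cell composition in these values was not tested.

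The members were then compared between set 2 and set 1, with each array of set 2 set against the set 1 array of its own condition. Of the 10 members, 6 were higher and 3 lower in set 2 (limma, adjusted p under 0.05), where 36.4% of all genes were higher and 22.8% lower. The arrays of the sets did not overlap for 8 members, 5 higher and 3 lower, where the same held for 55.6% of all genes (34.2% higher and 21.3% lower). The median of the members was 0.77, against 0.11 over all genes. The share of members that differed can be read only against these backgrounds, since more than 1 gene in 2 differed between the sets.

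**Figure D3:**
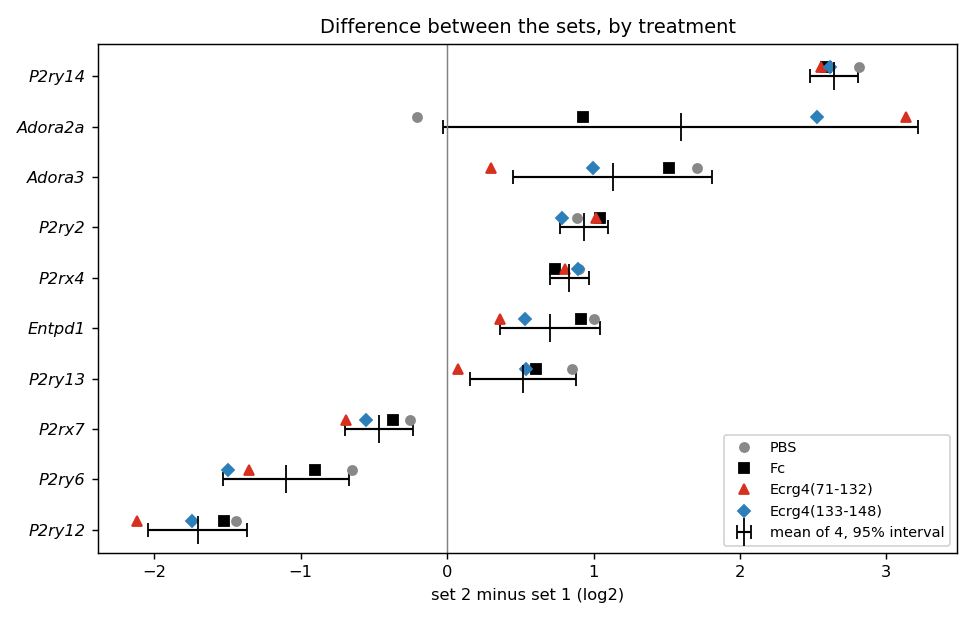
Log2 difference between set 2 and set 1 of each of the 10 genes, with 1 symbol per condition and a black bar for the mean of the 4 conditions with its 95% interval from limma. P2ry14 lay between 2.55 and 2.81 in all 4 conditions and P2ry12 between -2.12 and -1.44, whereas Adora2a ran from -0.21 with PBS to 3.13 with Ecrg4(71-132).

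P2ry14 was the member with the largest difference between the sets, at 2.64 (SE 0.06, interval 2.48 to 2.80), or 6.24-fold higher in set 2 (limma, adjusted p = 7.98e-05). Its set means were 2.02 ± 0.05 and 4.66 ± 0.09 (SD over the 4 conditions). P2ry12 was lower in set 2, with a difference of -1.70 (SE 0.13, interval -2.04 to -1.37, adjusted p = 0.000701), or 3.26-fold. The difference within a condition ran from -1.44 with PBS to -2.12 with Ecrg4(71-132). P2ry13 was 0.52 higher in set 2 (SE 0.14, interval 0.16 to 0.88, adjusted p = 0.0287), although the arrays of the sets overlapped. That call was lost without either array of PBS (0.41, adjusted p = 0.0816), Fc (0.49, adjusted p = 0.094) or Ecrg4(133-148) (0.51, adjusted p = 0.0927), and on median scaling (0.44, adjusted p = 0.0713).

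These 3 receptor genes are neighbours on mouse chromosome 3, read from the same strand, and differed between the sets in unlike directions, so the sequence around their starts is shown from 250 bases before to 50 bases after each start. The sequences are RefSeq's, on the minus strand of GRCm38.p6, 5′ to 3′, at chr3:59262936-59263235 for P2ry12, chr3:59210833-59211132 for P2ry13 and chr3:59153443-59153742 for P2ry14. Capitals mark the motif matches found by search on both strands.
P2ry12: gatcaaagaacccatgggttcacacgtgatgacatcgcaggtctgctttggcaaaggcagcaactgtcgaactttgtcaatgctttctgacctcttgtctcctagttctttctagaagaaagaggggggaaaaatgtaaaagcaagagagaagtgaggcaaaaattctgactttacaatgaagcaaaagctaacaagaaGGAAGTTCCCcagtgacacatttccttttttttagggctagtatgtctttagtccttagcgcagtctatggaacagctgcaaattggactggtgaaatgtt
P2ry13: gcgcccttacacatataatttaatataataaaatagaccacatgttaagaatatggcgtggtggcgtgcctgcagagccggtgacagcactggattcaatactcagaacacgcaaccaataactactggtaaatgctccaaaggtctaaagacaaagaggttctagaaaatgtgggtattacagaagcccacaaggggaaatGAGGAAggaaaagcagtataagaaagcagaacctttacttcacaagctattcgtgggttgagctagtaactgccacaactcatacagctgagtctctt
P2ry14: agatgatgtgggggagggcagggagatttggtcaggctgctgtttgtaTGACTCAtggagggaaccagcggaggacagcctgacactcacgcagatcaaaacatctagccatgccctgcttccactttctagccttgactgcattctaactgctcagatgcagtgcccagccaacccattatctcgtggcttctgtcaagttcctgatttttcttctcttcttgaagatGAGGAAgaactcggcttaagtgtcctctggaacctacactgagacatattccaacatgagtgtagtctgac
The search used GAGGAA (the core recognised by PU.1, the macrophage lineage factor), TGANTCA (AP-1), TGACGTCA (CRE), TATAAA (the core promoter box) and the kappaB and ISRE core motifs. No marked match overlaps another. The P2ry12 window holds 1 kappaB match, starting at position -51 from the start, on the opposite strand, and a kappaB match is present in 5.56% of 32851 promoter windows. The P2ry13 window holds GAGGAA at -48, and the P2ry14 window holds GAGGAA at -21 and TGANTCA at -202. GAGGAA is present in 28.3% of all windows and TGANTCA in 7.81%. The CRE, ISRE core and TATAAA motifs, present in 1.79%, 3.44% and 13.6% of all windows, had no match in the 3 windows printed. P2ry14 has 4 such windows in the table, of which the first is printed, and all 4 hold GAGGAA. A match describes the letters only and is no evidence of a bound factor. In all, 8 of the 10 members had at least 1 window in that table, and P2ry6 and Adora2a had none.

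P2ry6 was lower in set 2 by a difference of -1.1 (SE 0.16, interval -1.53 to -0.67, adjusted p = 0.00483), from -0.65 with PBS to -1.50 with Ecrg4(133-148). P2ry2 was higher by 0.93 (SE 0.06, adjusted p = 0.000508) and P2rx4 by 0.84 (SE 0.05, adjusted p = 0.000417), each with differences of a similar size in the 4 conditions. They ran from 0.79 to 1.04 for P2ry2 and from 0.74 to 0.90 for P2rx4. Entpd1 was 0.70 higher (SE 0.13, adjusted p = 0.00944), by 1.0 and 0.91 with PBS and Fc and by 0.36 and 0.53 with the fragments. Adora3 was 1.13 higher (SE 0.26, interval 0.45 to 1.81, adjusted p = 0.018), by 1.71 with PBS and 1.51 with Fc but 0.30 with Ecrg4(71-132). Its call was lost without either array of PBS (0.94, adjusted p = 0.0589), Fc (1.0, adjusted p = 0.0637) or Ecrg4(133-148) (1.18, adjusted p = 0.0578). Adora2a was not called, at 1.60 (SE 0.62, interval -0.03 to 3.22, adjusted p = 0.0806), and its sets overlapped. Without either PBS array, where the difference was -0.21, it was called at 2.20 (adjusted p = 0.035).

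P2rx7 was lower in set 2 by its brightest probe, with a difference of -0.47 (SE 0.09, interval -0.70 to -0.24, adjusted p = 0.0101). That probe carries the accession NM_011027. The other 2 probes, which carry the accessions of other transcripts of the gene, went the other way without being called. The probe for NM_001038845 read -1.99, -1.76, -1.99 and -2.26 in set 1 and -1.62, -1.93, -1.96 and -1.87 in set 2, a difference of 0.16 (SE 0.12, adjusted p = 0.301). The probe for NM_001038887 read 0.79, 0.86, 0.40 and 0.59 in set 1 and 0.93, 0.84, 0.99 and 0.82 in set 2, a difference of 0.23 (SE 0.11, adjusted p = 0.134). In both of these the arrays of the sets overlapped, and the mean of the 3 probes differed between the sets by -0.03 (adjusted p = 0.737). The direction for P2rx7 therefore depends on the probe.

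**Figure D4:**
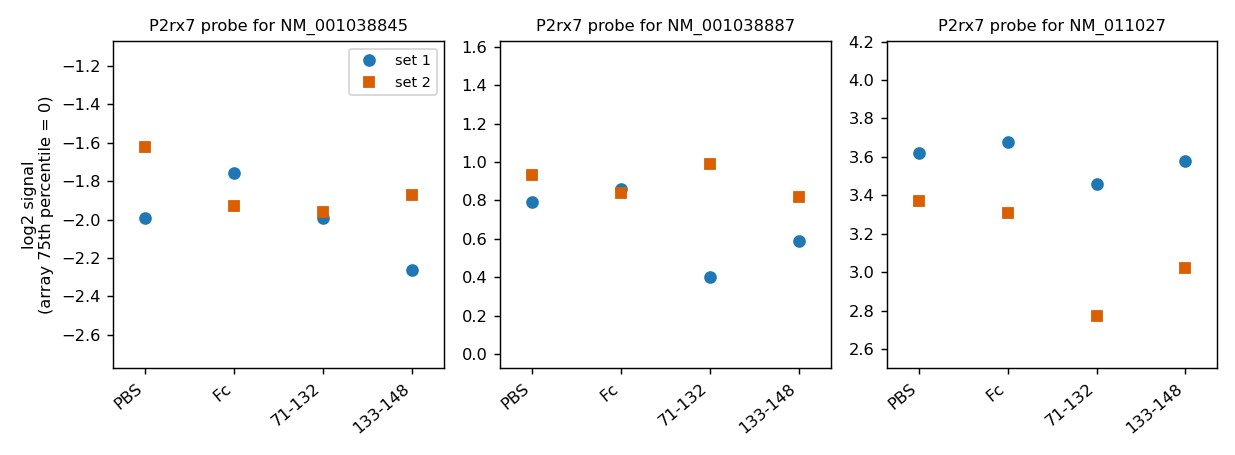
Log2 signal (array 75th percentile = 0) of the 3 P2rx7 probes by condition, with circles for set 1 and squares for set 2, 1 array a point. The NM_011027 probe was lower in set 2 in all 4 conditions (by 0.25 to 0.69), and the other 2 showed overlapping sets.

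Markers of several cell types moved with the sets. Microglia and macrophage markers, all 9 of 9 tested, summed to 1060 to 1150 in set 1 and 1320 to 1460 in set 2. Of these 9, 5 were called higher in set 2 and 3 lower (limma, adjusted p under 0.05). Aif1 was among the lower ones, at 3.26 to 3.52 in set 1 and 1.68 to 1.79 in set 2. Within that list and the homeostatic microglia list, Cx3cr1, the fractalkine receptor gene, read 4.58 to 4.71 in set 1 and -3.25 to -0.74 in set 2. Tmem119, a microglia marker, was well above background on 5 of the 8 arrays, and read -2.06 to -2.03 in set 1 and -4.67 to -3.82 in set 2. Astrocyte markers (7 of 8 tested) summed to 29.6 to 42.7 in set 1 and 72.4 to 76.8 in set 2, although 5 of the 7 were lower in set 2, Gfap among them. Oligodendrocyte lineage markers (7 of 9) summed to 42.0 to 44.6 and 92.3 to 111, although 3 were called higher in set 2 and 3 lower. Fibroblast markers (3 of 6) summed to 21.6 to 46.8 and 0.337 to 0.512. Sums for neurons (1 of 6) were 3.03 to 3.24 and 4.06 to 7.86, for endothelium (2 of 4) 5.73 to 6.31 and 6.84 to 7.56, for T and B cells (1 of 4) 0.867 to 1.04 and 1.12 to 1.65, for neutrophils (1 of 4) 14.2 to 15.6 and 16.8 to 22.9, and for monocytes (1 of 2) 0.448 to 0.665 and 0.126 to 0.28. Their part in the members' set differences was not tested.

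Other genes of purinergic signalling were counted from lists drawn up by function, with earlier results of these data known. The list counts are therefore descriptions and cannot test an excess over all genes. Every count below is to be read against all genes tested, of which 36.4% were called higher and 22.8% lower in set 2, while Ecrg4(71-132) against Fc had 1.33% above and 1.43% below the 1.5-fold limit in both sets. The median of Ecrg4(71-132) minus Fc was -0.79 for the other P2Y and related receptors, 0.22 for the other P2X channels, 0.02 for the converting enzymes, -0.23 for transporters and release, 0.1 for signalling partners, 0.01 for inflammasome output and -0.05 for homeostatic genes, against -0.02 for all genes. Of the other P2Y and related receptors, 5 of 8 were tested, and 2 were over 1.5-fold lower with Ecrg4(71-132) than with Fc in both sets. Gpr34, a lysophosphatidylserine receptor of microglia related to the P2Y family, read 1.34, 1.16, 0.13 and 0.65 in set 1 and 1.0, 0.97, -0.53 and -0.12 in set 2. Both fragment arrays lay below both control arrays in each set, and Ecrg4(71-132) minus Fc was -1.26 (SE 0.35, interval -2.14 to -0.38, limma adjusted p = 1, block adjusted p = 0.178). The other was Gpr183, a receptor for oxysterols, which was well above background on 5 arrays. P2ry1, an ADP receptor, was 0.90 higher with Ecrg4(133-148) than with Ecrg4(71-132) (SE 0.55, adjusted p = 1), by 0.59 and 1.21. Between the sets 1 of the 5 was higher in set 2 (Gpr35, by 1.79, adjusted p = 0.000919) and 3 were lower.

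Adora2b, the other adenosine receptor tested of 2 and also coupled to Gs, resembled Adora2a in the order of its values. It read 2.94, 3.27, 3.83 and 3.56 in set 1 and 2.77, 3.46, 5.26 and 4.44 in set 2. PBS was the lowest and Ecrg4(71-132) the highest array of each set. Ecrg4(71-132) minus Fc was 1.18 (SE 0.53, interval -0.16 to 2.51, adjusted p = 1, block adjusted p = 0.25), with 0.56 and 1.79 in the sets. The 3 of 5 other P2X channels tested held no gene past 1.5-fold in both sets in any comparison with Fc, and between the sets P2rx5 was 2.20 higher in set 2 (SE 0.09, adjusted p = 0.000164), whereas P2rx1 (-0.88) and P2rx3 (-0.51) were lower.

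Among 17 of 22 nucleotide and adenosine converting enzymes tested, none was over 1.5-fold higher or lower with Ecrg4(71-132) than with Fc in both sets. Between the sets 2 were higher in set 2 and 7 lower, where 36.4% and 22.8% of all genes were. Bst1, a surface enzyme that makes cyclic ADP-ribose, was 3.03 higher (SE 0.07, adjusted p = 7.38e-05). Entpd2, another ectonucleotidase, differed by -2.73 (SE 0.31, adjusted p = 0.00219), and Ada, the deaminase that removes adenosine, by -1.67 (SE 0.05, adjusted p = 0.000101). Of the 9 of 11 nucleoside transporters and ATP release genes tested, none passed 1.5-fold for either fragment against Fc in both sets, and 3 were higher and 4 lower in set 2. Slc29a1, an adenosine transporter, was 0.90 higher (adjusted p = 0.00022), and Panx1, a channel that releases ATP, differed by -0.78 (adjusted p = 0.00168).

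All 22 signalling partners were tested. With Ecrg4(71-132), 3 were over 1.5-fold above Fc in both sets, against 1.33% of all genes, and none below: Pde4b, a phosphodiesterase that degrades cyclic AMP (1.75, SE 0.69), Kcnn4, a calcium-activated potassium channel (1.29, SE 1.64), and Kcna3, a voltage-gated potassium channel (0.80, SE 1.33), all with limma adjusted p = 1. Their differences within the sets were 0.91 and 2.59, 0.87 and 1.70, and 0.62 and 0.99. Kcnn4 was also above Fc with Ecrg4(133-148), by 0.855 on average. Between the sets 11 were higher in set 2 and 3 lower, against 36.4% and 22.8% of all genes, with Kcnn4 at -2.65, Kcna3 at 2.17 and Plcb2, a phospholipase C, at 1.51.

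In the list of P2X7 and inflammasome output, all 9 genes were tested and 3 were over 1.5-fold above Fc with Ecrg4(71-132) in both sets, against 1.33% of all genes, namely Il1a, Il1b and Nlrp3. Nlrp3, the inflammasome sensor, read -1.42, -0.69, 0.50 and -0.53 in set 1 and -2.58, -1.76, 1.23 and -0.33 in set 2. Ecrg4(71-132) was the highest array of each set, and its difference from Fc was 2.09 (SE 0.55, interval 0.72 to 3.46, adjusted p = 1, block adjusted p = 0.219). The 3 genes were also over 1.5-fold lower with Ecrg4(133-148) than with Ecrg4(71-132) in both sets. The same 3 genes were already over 1.5-fold higher with Fc than with PBS in both sets, by means of 1.34 for Il1b, 0.78 for Nlrp3 and 0.73 for Il1a (limma adjusted p = 1), where 0.183% of all genes were. P2rx7 itself was lowest with Ecrg4(71-132) in both sets by its brightest probe, but not by the others. Between the sets 3 of the 9 were higher in set 2 and 1 lower, with Il18 at 1.81 (adjusted p = 9.22e-05).

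Of the homeostatic microglia genes, 12 of 14 were tested, and 1, Gpr34, was over 1.5-fold lower with Ecrg4(71-132) than with Fc in both sets. Between the sets 4 were higher in set 2 and 7 lower, where 36.4% and 22.8% of all genes were. The largest differences were those of Cx3cr1 (-6.62, SE 0.43, adjusted p = 0.00046), Olfml3 (-4.40, well above background on 7 arrays) and Fcrls (-4.04, SE 0.08, adjusted p = 6.94e-05). P2ry12, at -1.70, was lower in the same set as these 3 genes, while the 4 genes called higher went the other way.

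Patterns over the arrays were compared after the mean of each set was subtracted, over the 8 arrays of the slide, as a description. The ranking covered 16994 genes measured above background throughout. P2ry12 and Adora2a varied more within set 2 than within set 1, so the set 2 arrays weigh more in r. The highest of so many values of r over 8 arrays is high by selection. The genes most like P2ry12 were BC006028 (Pearson r = 0.998), Arid2 (0.998) and Helb (0.997). Arid2, a chromatin remodelling subunit, read -0.08, -0.02, -0.17 and -0.13 in set 1 and 0.23, 0.24, -0.34 and -0.04 in set 2, with the lowest array of each set again that with Ecrg4(71-132). Those most like Adora2a were Gadd45a (0.998), Il6 (0.998) and Tnip1 (0.997). Gadd45a, a stress-induced gene, read 1.0, 1.11, 1.83 and 1.21 in set 1 and 1.65, 2.41, 3.97 and 3.13 in set 2, in the same order of conditions as Adora2a. Among the members, P2ry12 followed the brightest P2rx7 probe (0.99) and P2ry13 (0.98) and ran against Adora2a (-0.93). The other P2rx7 probes, which read differently, were not compared in this way. P2rx4 followed no other member beyond 0.51 in either direction.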

How the data were processed

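The labels describe 8 one-colour Agilent arrays. Scanner files hold background-subtracted spot intensity from Agilent Feature Extraction (version 11.0.1.1, a tool the submitters' processing notes list). The deposited table holds log2 values equal to log2 scanner intensity minus 1 constant per array (r = 1, column medians -4.49 to -4.21), so its scale and direction are those of the scanner. The 75th percentile of each deposited column was between -0.00066 and -1e-05, so the constant was the 75th percentile of that column's values to within that difference. The percentile subtracted here was taken over all non-control spots, repeated spots included, and is not the same constant. Deposited values of the members therefore lie above those given here, as for P2ry12 on the PBS array of set 1 (1 against 0.75).

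Here, outlying spots were dropped, spots of a probe averaged, and each array's 75th percentile subtracted from log2 intensity. RefSeq accessions named 28026 of the 55681 probes through a gene table of GRCm38.p6. The array design names another build, so probes are given no coordinates, and the promoter windows carry those of RefSeq's GRCm38.p6 table. A probe stayed if both arrays of some group flagged it well above background (25247 probes, after 104 outlying throughout on an array were removed). A gene took its brightest probe (19117 genes). Of these, 12594 carried a gene symbol. The others were probes without a symbol, kept under the name the array gives them, and they count in every share of all genes tested. The treatment model in limma 3.58.1 (R 4.3.3) had a mean for each group over all 8 arrays (4 residual degrees of freedom), or also the set as a replicate block (3). Set 2 against set 1 was fitted with condition as a term (3). Benjamini-Hochberg adjustment ran over all genes. Set numbers were taken as pairs because set differences correlated at 0.78 to 0.86 in all 6 pairs of groups. All arrays lie on 1 slide, the sets in separate columns. The fits were run on simulated arrays with planted differences, where only the mean size of the estimates had to lie near the planted size. Recovered and false calls were under no condition, so this run says nothing about the power of the calls. The named genes are all 10 members, and of each list at most 3 genes over 1.5-fold in both sets or with the largest called set difference. The members and lists were chosen with earlier results of these data known. Alternatives covered background correction, scaling, filters, probe rule, moderation, the deposited table, thresholds and each array left out. The number of arrays limits precision.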

Additional observations from a re-analysis of the deposited data

Results flagged for a closer look

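P2ry13 on the Fc array of set 1 stood apart from the other 3 arrays of its set, at a log2 signal of 1.42, where the nearest of them was 1.13. The gap was 0.84 of the range, above the critical value of Dixon's test for 4 values. The 4 arrays of a set carry 4 different conditions, so they are not replicates of each other. Among groups of replicates chance would flag about 1 in 20, a rate that need not hold here. Of the 20 groups tested (10 genes in 2 sets), 1 was flagged.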

How the results depend on the processing

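No treatment call was made for any member under any alternative, with or without the set as a replicate block, so the members' treatment differences are descriptions. Of the 10 members' set calls, 7 were unchanged under the alternatives that keep all arrays. For set 2 against set 1, P2ry13 lost its call on median scaling (0.44, adjusted p = 0.0713) and without the treatment term (0.52, adjusted p = 0.0506). P2rx7 lost its call with the mean of its probes (-0.03, adjusted p = 0.737), and 2 other P2rx7 probes, chosen after seeing the data, gave 0.16 and 0.23. Adora2a gained one with normexp correction (1.40, adjusted p = 0.042). Genes called between the sets rose from 11331 to 18666 with no filter on dim probes, where the share of calls higher in set 2 went from 61.5% to 72.8%.

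Small differences changed sign under scaling. With Ecrg4(71-132) against Fc, P2ry14 was 0.006 on median scaling. Between the fragments P2rx4 was -0.004 with normexp and -0.015 on median scaling. Between Fc and PBS, P2ry12 (-0.043) and P2rx7 (0) changed with normexp, P2ry6 (0.035), P2ry14 (0.074), P2ry2 (0.054), P2rx7 (0.082) and Entpd1 (0.057) on median scaling, and P2rx7 (0.006) in the deposited table. Against PBS, P2ry14 changed on median scaling with Ecrg4(71-132) (0.08) and Ecrg4(133-148) (0.036), and P2rx4 on quantile normalization (-0.111 and -0.055).

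Genes over 1.5-fold in both sets numbered 528 for Ecrg4(71-132) against Fc, and 139 at 2-fold, 236 with normexp and 329 among probes above background on all arrays. The same counts were 132, 15, 27 and 50 for Ecrg4(133-148) against Fc, 317, 104, 149 and 164 between the fragments, and 108, 31, 29 and 18 for Fc against PBS. The counts of members (1, 0, 1 and 0) did not move.

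Leaving out 1 array without the block leaves means over different sets, and 52 of 60 member differences then changed sign, or did so with the block. In the blocked fits alone, Ecrg4(71-132) minus Fc kept its sign for P2ry12 (-0.82 to -0.27) and P2ry6 (-0.38 to -0.045). The same held for P2ry2 (0.21 to 0.35) and P2rx4 (-0.18 to -0.05). The sign changed in a blocked fit for P2ry14 (-0.11 to 0.004), Entpd1 (-0.40 to 0.05) and Adora3 (-1.01 to 0.09). Ranges over both kinds of fit follow. Against Fc with Ecrg4(71-132) they were, for P2ry12, -1.60 to 0.52, P2ry6 -0.89 to 0.46, P2ry14 -1.35 to 1.24, P2ry2 -0.24 to 0.80, P2rx4 -0.51 to 0.29, Entpd1 -0.63 to 0.28 and Adora3 -1.22 to 0.30. Against Fc with Ecrg4(133-148) they were, for P2ry12, -1.19 to 0.55, P2ry6 -0.84 to 0.66, P2ry14 -1.39 to 1.23, P2ry2 -0.29 to 0.75, P2rx4 -0.56 to 0.34, P2rx7 -0.47 to 0.084, Entpd1 -0.70 to 0.21, Adora2a -0.15 to 2.37 and Adora3 -0.95 to 0.56. Between the fragments they were, for P2ry12, -0.83 to 1.28, P2ry13 -0.081 to 0.51, P2ry6 -0.62 to 0.87, P2ry14 -1.33 to 1.28, P2ry2 -0.56 to 0.46, P2rx4 -0.44 to 0.45, P2rx7 -0.15 to 0.54, Entpd1 -0.34 to 0.20 and Adora3 -0.29 to 0.82. Between Fc and PBS they were, for P2ry12, -0.71 to 0.81, P2ry13 -0.27 to 0.59, P2ry6 -0.50 to 0.40, P2ry14 -1.42 to 1.40, P2ry2 -0.55 to 0.49, P2rx4 -0.30 to 0.60, P2rx7 -0.19 to 0.18, Entpd1 -0.53 to 0.47, Adora2a -0.27 to 2.13 and Adora3 -0.79 to 0.92. Against PBS with Ecrg4(71-132) they were, for P2ry12, -1.55 to 0.57, P2ry13 -0.85 to 0.001, P2ry6 -0.94 to 0.41, P2ry14 -1.47 to 1.34, P2ry2 -0.26 to 0.76, P2rx4 -0.42 to 0.49, Entpd1 -0.70 to 0.30 and Adora3 -1.25 to 0.46. Against PBS with Ecrg4(133-148) they were, for P2ry12, -1.14 to 0.60, P2ry13 -0.64 to 0.21, P2ry6 -0.89 to 0.61, P2ry14 -1.50 to 1.31, P2ry2 -0.24 to 0.65, P2rx4 -0.41 to 0.49, P2rx7 -0.47 to 0.082, Entpd1 -0.77 to 0.23 and Adora3 -0.98 to 0.72. With the block, genes called ran from 0 to 481 for Ecrg4(71-132) against Fc and from 0 to 1077 against PBS, the highest counts without the Ecrg4(71-132) array of set 1, where the lone array of set 2 is assumed to vary like the other groups. No member was among the genes called. The cause of these changes was not tested.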
